A study of Mus musculus with 9 samples.

Results

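The RNA of 10 genes that mark intestinal goblet cells was followed across sorted mouse epithelial cells. They are Muc2, Tff3, Fcgbp, Zg16, Clca3, Spink4 and Retnlb, which encode secreted products, Agr2, which encodes an enzyme of the secretory pathway, and the transcription factor genes Spdef and Atoh1. The genes were chosen by name, and every probe that is not a control and carries one of these names was read, which gave 14 probes for the 10 genes among 28478 gene names on the array. Zg16 stands in the files under the clone name 1810010M01Rik and was matched by its RefSeq accession. The array name Clca3 belongs to the gene now called Clca1, and the probe named Clca1 on the array belongs to another gene, now called Clca3a1, which was not counted among the 10.

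Samples came from C57BL/6 mice and formed 3 groups of 3 replicates, each replicate being a separate pool of mice. MHCIIhi cells were released from the small intestine with EDTA and sorted as Epcamhi MHChi CD45- Fluorogold-. MHCIIlo cells came from the same kind of preparation and were sorted as Epcamint MHCint CD45- Fluorogold-. Kidney cells were freed with enzymes and sorted as Epcam+ CD45- Fluorogold-. Cells of 3 mice were pooled for each intestinal replicate and cells of 4 mice for each kidney replicate. The gates carry no goblet cell marker, so each intestinal sample is a mixture of epithelial cell types.

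Goblet cells are secretory cells of the intestinal epithelium that build the mucus layer between the gut contents and the tissue. They arise from crypt progenitors in which Notch signalling is low and Atoh1 is switched on, and Spdef drives their maturation. Mucin made in the endoplasmic reticulum is folded with the help of disulfide isomerases such as Agr2, glycosylated in the Golgi, stored in granules and released together with trefoil peptides, lectins and antimicrobial proteins. Paneth cells, which sit at the crypt base, belong to the same secretory lineage and release antimicrobial peptides.

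Levels are log2 processed signal minus the 75th percentile of the array, so that a level of 0 equals that percentile, and means are given ± SD over 3 arrays. Differences between groups are log2 values ± SE from limma fitted to 19993 genes on all 9 arrays, with Benjamini-Hochberg adjusted p over those genes. A gene was called when the adjusted p was below 0.05 and the difference was at least 1. Probes well above background made up 60.8 to 64.6% of probes in MHCIIhi, 50.7 to 57.1% in MHCIIlo and 70.8 to 72.9% in kidney, and no spot was saturated. The 75th percentile of the signal was 213 to 371 in MHCIIhi, 100.6 to 185 in MHCIIlo and 599 to 769 in kidney. The MHCIIlo arrays shared a slide and scan with MHCIIhi 3 but not with MHCIIhi 1 and 2. No kidney array shared a slide with an intestinal one, so kidney and slide cannot be told apart. MHCIIhi 3 (-36.1) and MHCIIlo 1 (36.5) lay closest to the other sort on the second principal component, and MHCIIlo 3 had the dimmest signal of the 9 arrays. With 3 arrays per group, the number of arrays limits the precision of every value.

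Goblet cell genes stood higher in the MHCIIhi sort than in the MHCIIlo sort and far lower in kidney. Of the 10 genes, 7 were called higher in MHCIIhi and 0 lower, against 14.9% of all genes tested called higher and 16.1% called lower. For 8 of the 10, each MHCIIhi array lay above each MHCIIlo array, as did 23.7% of all genes tested. Their median difference was 1.62, with a range of 0.93 to 2.38, where the median over all genes was -0.24. The largest fitted differences were those of Agr2, Spdef and Atoh1, and the smallest those of Zg16 and Clca3. Atoh1 was well above background on only 1 of 3 MHCIIlo arrays. As a lower bound it was at least 2.83-fold higher in MHCIIhi, where Muc2 was 3.08-fold higher. In a bulk sample, fewer cells of a type and less RNA per cell cannot be told apart. Within the slide that held both sorts, all 10 genes were also higher in MHCIIhi 3 than the mean of the MHCIIlo arrays, by 1.56 to 2.13, and with slide as a block 2 genes, Spdef and Spink4, were called. That block sets MHCIIhi 3 alone against the MHCIIlo arrays, so its p-values assume that this array varies like the others, whose spread they use. It also called fewer of all genes than the main fit, so the shares above are not its background.

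**Figure D1:**
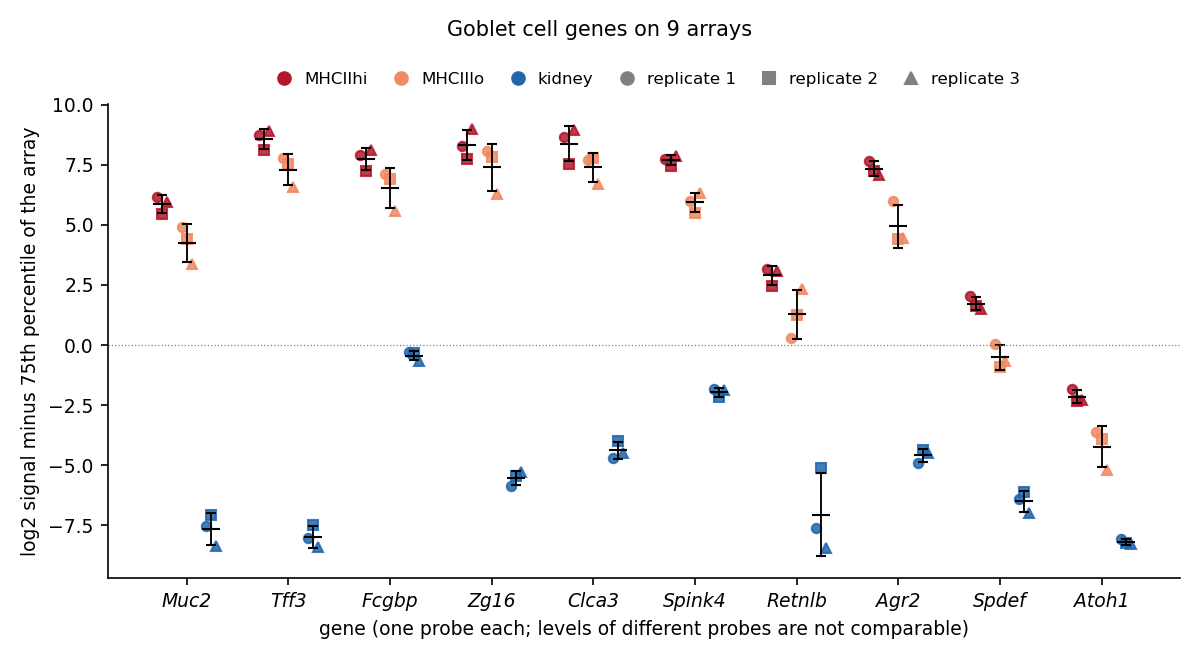
Level of each gene (y axis, log2 signal minus the 75th percentile of the array) in each replicate of MHCIIhi, MHCIIlo and kidney, with the mean and SD of each group in black. Kidney lies below both intestinal sorts for every gene, and the MHCIIhi and MHCIIlo points overlap only for Zg16 and Clca3.

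Muc2, the gel-forming mucin that builds the mucus of the intestine, stood at 6.18, 5.46 and 5.93 on the MHCIIhi arrays and at 4.90, 4.43 and 3.37 on the MHCIIlo arrays. All MHCIIhi values were higher, and the lowest value of the 6 was that of MHCIIlo 3. The difference was 1.62 ± 0.44, or 3.08-fold, with a limma adjusted p of 0.0172. Within the shared slide it was 1.70 (adjusted p = 0.143), and it was not called without MHCIIhi 1 (1.46, adjusted p = 0.0599) or without MHCIIlo 3 (1.19, adjusted p = 0.0505).

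Muc2 was the gene with most probes, 4 of 60 bases each, and they are shown because they lie at separate places along the gene. Positions come from the probe annotation in the files (mm8), and exon borders were not analysed here. The brightest probe (A), used for the values above, lies at chr7:141565366-141565425. The others (B, C and D) lie at chr7:141548430-141548489, chr7:141544522-141544673 and chr7:141552211-141552678. C and D span 152 and 468 bases of genome, more than their own length. Sequences are in lower case, 5′ to 3′, with no part marked.
Muc2 probe A: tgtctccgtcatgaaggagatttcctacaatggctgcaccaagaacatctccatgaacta
Muc2 probe B: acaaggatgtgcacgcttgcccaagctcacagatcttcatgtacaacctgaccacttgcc
Muc2 probe C: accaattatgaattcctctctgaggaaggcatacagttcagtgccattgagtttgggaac
Muc2 probe D: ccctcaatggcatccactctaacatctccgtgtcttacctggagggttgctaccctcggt
The differences between the sorts were 1.81, 1.76 and 1.78 for B, C and D, each called (limma adjusted p = 0.00448, 0.00216 and 0.00766). All 4 probes had their lowest intestinal value on MHCIIlo 3.

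Tff3, a trefoil peptide that is stored and released with the mucin, stood at 8.73, 8.11 and 8.91 in MHCIIhi and at 7.78, 7.52 and 6.56 in MHCIIlo. The sorts did not overlap, and MHCIIlo 3 was again the lowest. Tff3 was 2.45-fold higher in MHCIIhi (difference 1.29 ± 0.37, limma adjusted p = 0.0208), and 1.62 higher within the shared slide (adjusted p = 0.0964). It was not called without MHCIIhi 1 (1.22, adjusted p = 0.0648) or without MHCIIlo 3 (0.93, adjusted p = 0.0609).

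Fcgbp encodes a large protein built of repeated mucin-type domains that is part of the mucus. Its levels were 7.90, 7.22 and 8.10 in MHCIIhi and 7.11, 6.89 and 5.58 in MHCIIlo. The lowest MHCIIhi value, that of MHCIIhi 2, lay just above the highest MHCIIlo value. The difference was 1.21 ± 0.40, or 2.32-fold (limma adjusted p = 0.0340), and 1.57 within the shared slide (adjusted p = 0.121). Fcgbp was the called gene that rested most on single arrays: without MHCIIlo 3 it was 0.74 (adjusted p = 0.0746), without MHCIIhi 1 it was 1.13 (adjusted p = 0.0937) and without MHCIIhi 3 it was 1.03 (adjusted p = 0.0800).

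Fcgbp has 2 probes, shown because this gene kept the clearest kidney signal. The brighter lies at chr7:27829258-27829317 and the other at chr7:27826324-27829118 of mm8, which covers 2795 bases of genome.
Fcgbp brighter probe: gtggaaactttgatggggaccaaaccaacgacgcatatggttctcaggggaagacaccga
Fcgbp other probe: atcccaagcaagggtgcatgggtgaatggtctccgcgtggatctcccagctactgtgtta
The other probe gave a difference of 1.28 between the sorts (limma adjusted p = 0.0297), and each of its intestinal values lay above its kidney values of -1.37, -1.09 and -1.36.

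Zg16, a small lectin-like protein of the mucus that binds bacteria, stood at 8.29, 7.73 and 8.97 in MHCIIhi and at 8.09, 7.82 and 6.28 in MHCIIlo. The sorts overlapped, as MHCIIhi 2 lay below MHCIIlo 1 and 2. The difference of 0.93 ± 0.48 was not called (limma adjusted p = 0.135), was 1.57 within the shared slide (adjusted p = 0.159) and was 0.38 without MHCIIlo 3. The probe that reads it, at chr7:126841471-126841530 of mm8, is shown since the files name it only as a clone.
Zg16 probe: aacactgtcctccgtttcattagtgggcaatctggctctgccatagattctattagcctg

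Clca3, a secreted mucus protein with a metalloprotease fold known as gob-5, stood at 8.65, 7.54 and 8.95 in MHCIIhi and at 7.71, 7.78 and 6.71 in MHCIIlo. MHCIIhi 2 lay below MHCIIlo 1 and 2, so the sorts overlapped here too. The difference of 0.98 ± 0.42 was not called (limma adjusted p = 0.0803) and was 1.56 within the shared slide (adjusted p = 0.119). Without MHCIIlo 3 it was 0.64 (adjusted p = 0.247), and without MHCIIhi 2 the gene was called, with a difference of 1.41 (adjusted p = 0.0267).

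Spink4, a small Kazal-type protease inhibitor peptide, stood at 7.75, 7.46 and 7.88 in MHCIIhi and at 5.98, 5.50 and 6.32 in MHCIIlo. The sorts lay far apart compared with their own spread, and unlike the mucus genes above the highest MHCIIlo value was that of MHCIIlo 3. Spink4 was 3.40-fold higher in MHCIIhi (difference 1.77 ± 0.24, limma adjusted p = 0.00100), and it was 1.95 within the shared slide (adjusted p = 0.0158). It was called under every one of the 22 alternative settings in which it was tested. Its probe spans chr4:41117844-41119968 of mm8, 2125 bases of genome for 60 bases of probe.
Spink4 probe: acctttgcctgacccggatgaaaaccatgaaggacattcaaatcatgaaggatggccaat

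Retnlb, a resistin-like antimicrobial protein of goblet cells, stood at 3.18, 2.45 and 3.09 in MHCIIhi and at 0.29, 1.25 and 2.33 in MHCIIlo. The sorts did not overlap, though MHCIIlo 3 lay just below MHCIIhi 2. The difference of 1.62 ± 0.81 matched that of Muc2 in size, but its error was larger and it was not called (limma adjusted p = 0.122). The MHCIIlo arrays spread with an SD of 1.02 against 0.40 in MHCIIhi. Within the shared slide the difference was 1.80 (adjusted p = 0.351), and it was called with quantile normalization (1.72, adjusted p = 0.0383).

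Agr2, the disulfide isomerase of the endoplasmic reticulum that Muc2 needs for its folding, stood at 7.67, 7.23 and 7.08 in MHCIIhi and at 5.98, 4.41 and 4.45 in MHCIIlo. The lowest MHCIIhi value exceeded the highest MHCIIlo value by more than 1 log2 unit, and MHCIIlo 1 was the array of its sort that came closest. The difference of 2.38 ± 0.41 (limma adjusted p = 0.00275) was the largest of the 10. Within the shared slide it was 2.13 (adjusted p = 0.0640). Agr2 was called with any single intestinal array left out, with differences of 2.12 to 2.90.

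Spdef, an ETS transcription factor of goblet and Paneth cell maturation, stood at 2.02, 1.61 and 1.503 in MHCIIhi and at 0.05, -0.91 and -0.68 in MHCIIlo. As for Agr2, MHCIIlo 1 was the highest of its sort. The difference was 2.23 ± 0.31 (limma adjusted p = 0.00120) and 2.02 within the shared slide (adjusted p = 0.0343). Spdef was called under all 21 alternative settings in which it was tested.

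Atoh1, the basic helix-loop-helix factor that sets the secretory fate, was the dimmest of the 10. It stood at -1.83, -2.31 and -2.29 in MHCIIhi, where all 3 arrays were well above background, and at -3.61, -3.89 and -5.20 in MHCIIlo, where 1 of 3 was. The fitted difference was 2.09 ± 0.38 (limma adjusted p = 0.00337), and 1.94 within the shared slide (adjusted p = 0.0686). Set on each MHCIIlo array against the higher of the array's detection floor (the dimmest probe still well above background) and its own signal, Atoh1 was at least 2.83-fold higher in MHCIIhi. With normexp background correction, which here added an offset of 50 to each signal, the difference was -0.06 (limma adjusted p = 0.757). The processed signals of Atoh1 were 43.5 to 90.0 in MHCIIhi and 2.74 to 15.2 in MHCIIlo. The part of the offset in this change was not tested. Its probe lies at chr6:64659497-64659556 of mm8.
Atoh1 probe: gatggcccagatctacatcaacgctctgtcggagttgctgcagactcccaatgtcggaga

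**Figure D2:**
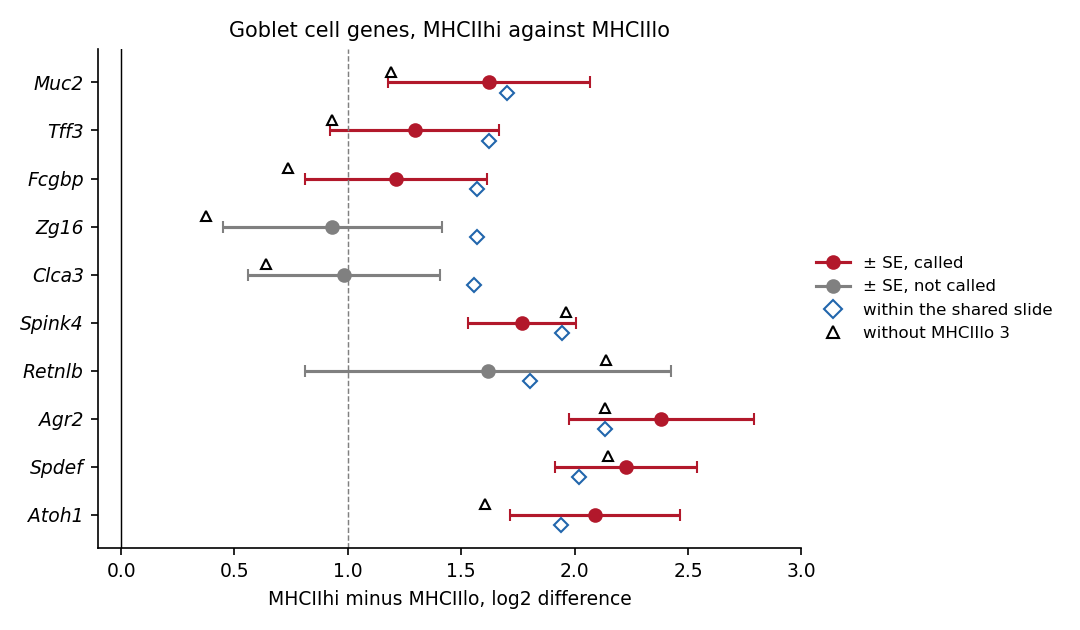
Difference between MHCIIhi and MHCIIlo for each gene (x axis, log2) with its SE, the value within the slide that held both sorts (diamonds) and the value without MHCIIlo 3 (triangles); the dashed line marks the size threshold of 1. Without MHCIIlo 3 the values of Muc2, Tff3, Fcgbp, Zg16 and Clca3 move towards 0, as do those of Atoh1 (1.61), Agr2 (2.13) and Spdef (2.15), and those of Spink4 and Retnlb move away from it.

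The 10 genes did not all vary alike among the arrays of one sort, though most shared their highest or lowest array. In MHCIIlo, 5 genes of the mucus (Muc2, Tff3, Fcgbp, Zg16 and Clca3) had their lowest value on MHCIIlo 3, with deviations of -0.69 to -1.11 from the mean of the sort. Atoh1, well above background on 1 of 3 MHCIIlo arrays, was lowest there too. On the same array Spink4 lay 0.39 and Retnlb 1.04 above the mean of the sort, their highest values there. On MHCIIlo 1, 7 of the 10 genes had their highest MHCIIlo value, with Agr2 and Spdef at 1.03 and 0.56 above the mean. Retnlb was lowest on that array, with a deviation of -1.003. Agr2, Spdef and Spink4 were lowest on MHCIIlo 2, with deviations of -0.53, -0.40 and -0.43. Agr2 was nearly as low on MHCIIlo 3, with a deviation of -0.50. Among the MHCIIhi arrays, 8 of the 10 genes had their lowest value on MHCIIhi 2, and Agr2 and Spdef on MHCIIhi 3. Such counts were not particular to the 10 genes and were not made over all genes. In lists described below, MHCIIhi 2 was lowest for 14 of 15 tuft cell and 17 of 24 enterocyte markers. It was lowest for 0 of 18 dividing cell and 0 of 16 stem cell genes. MHCIIlo 1 was highest for 18 of 18 dividing cell genes and 15 of 20 enteroendocrine markers, but for 1 of 24 enterocyte markers.

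Paneth cell markers were also higher in MHCIIhi, and on some arrays they moved with Spink4 or Retnlb. The 16 markers tested include Lyz1, the Paneth lysozyme, Mmp7, which activates defensins, and 6 defensin genes, near-identical copies whose probes can share signal. Of these 16 markers, 14 were called higher in MHCIIhi and 0 lower, with a median difference of 2.001; with slide as a block 1 was called. Their summed signal was 11.55 to 11.94 on the log2 scale in MHCIIhi, 9.01 to 11.06 in MHCIIlo and 4.24 to 4.78 in kidney. On MHCIIlo 3, the array on which Spink4 and Retnlb were highest of the sort, the sum was 11.06 and 13 of the 16 markers had their highest MHCIIlo value. On MHCIIlo 2, 13 markers were lowest, as was Spink4, whereas Retnlb was lowest on MHCIIlo 1. In MHCIIhi, 13 markers were highest on MHCIIhi 1, as was Retnlb, and 10 were lowest on MHCIIhi 3, where Spink4 was highest. The part of Paneth cells in the values of Spink4 and Retnlb was not tested.

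**Figure D3:**
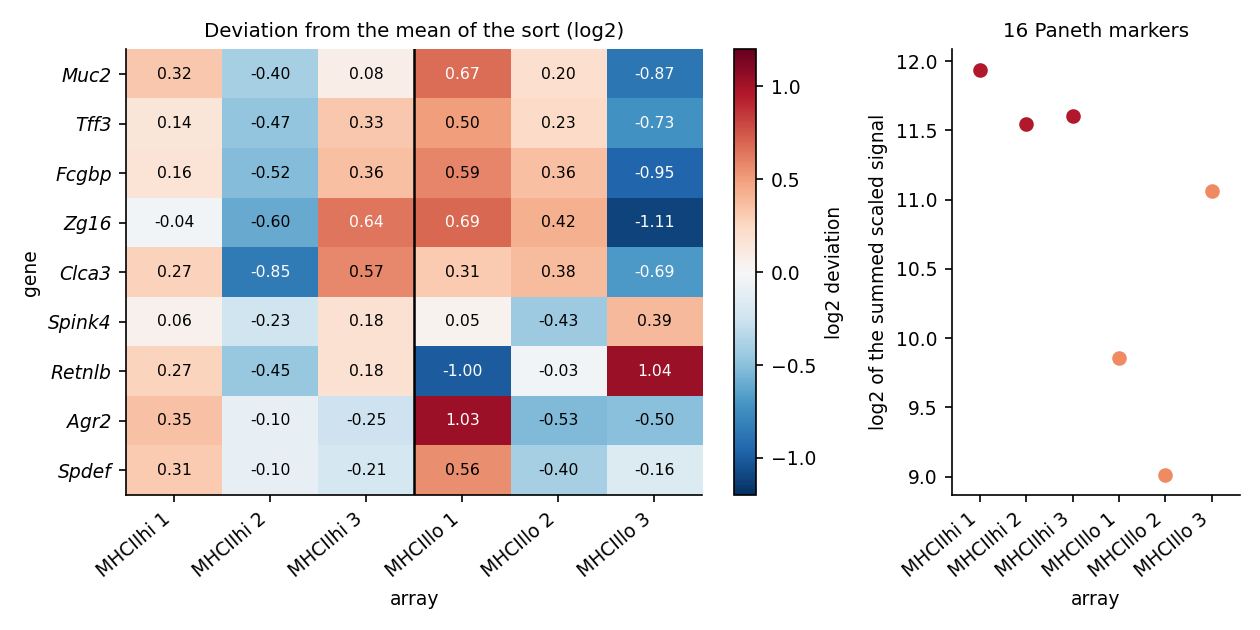
Left, deviation of each gene from the mean of its own sort on each intestinal array (log2, colour and printed value); right, log2 of the summed scaled signal of 16 Paneth cell markers on the same arrays. On MHCIIlo 3 the first 5 genes are low while Spink4, Retnlb and the Paneth marker sum are the highest of the sort; Atoh1 is not shown as it was not well above background on every intestinal array.

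Whether the genes differed unequally between the sorts was asked within each array, by the log2 difference of a gene to Muc2, which does not depend on scaling between arrays. This was done for the 8 other genes well above background on all 6 intestinal arrays. Relative to Muc2, Agr2 was higher in MHCIIhi by 0.76, at 1.497, 1.77 and 1.15 in MHCIIhi against 1.07, -0.02 and 1.08 in MHCIIlo, with no overlap (exact two-sided permutation test, p = 0.1). Fcgbp was lower by 0.41, also with no overlap (exact permutation p = 0.1). With 3 arrays against 3, 0.1 is the smallest p this test can give, and adjusted over the 8 comparisons both were 0.32. The 6 other genes ranged from -0.69 for Zg16 to 0.60 for Spdef and overlapped between the sorts. The value of Spdef changed sign with normexp background correction and its offset of 50 (-0.09). The test thus could not have passed a threshold of 0.05, and pairs of genes without Muc2 were not compared.

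All 10 genes were called lower in kidney than in each intestinal sort, and for all 10 each kidney array lay below each intestinal array. Over all genes tested, 22.8% were called lower in kidney than in MHCIIhi and 27.8% lower than in MHCIIlo. Kidney arrays lay below each MHCIIhi array for 36.1% of genes and below each MHCIIlo array for 38.5%. The median fitted difference of the 10 was -10.94 against MHCIIhi and -8.94 against MHCIIlo, where the medians over all genes were -0.02 and 0.04. Only Agr2, Fcgbp, Spink4 and Clca3 were well above background on all 3 kidney arrays. The sizes fitted for the other genes, and so these medians, depend on kidney signal near background. The kidney samples showed the markers of their tissue: of 16 tubule genes, 14 were called higher than in MHCIIhi and 13 higher than in MHCIIlo. Of 24 enterocyte markers, 21 and 23 were called lower in kidney.

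Muc2, Tff3, Spdef and Atoh1 were well above background on 0 of 3 kidney arrays. Folds for genes not measured on every kidney array are lower bounds, except that of Atoh1 in MHCIIlo. They were taken against the same kind of floor on each kidney array. Tff3 stood at -8.04, -7.47 and -8.37 in kidney and was at least 24194-fold higher in MHCIIhi and at least 9864-fold higher in MHCIIlo (limma adjusted p = 1.09e-08 and 1.30e-08). Muc2 stood at -7.53, -7.05 and -8.34 in kidney and was at least 3656-fold and at least 1187-fold higher (adjusted p = 5.38e-08 and 8.82e-08). Neither of these typical goblet products was well above background on any kidney array.

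Spdef stood at -6.38, -6.12 and -6.98 in kidney and was at least 207-fold higher in MHCIIhi and at least 44.2-fold higher in MHCIIlo. Atoh1 stood at -8.06, -8.22 and -8.27 in kidney, and was at least 14.3-fold higher in MHCIIhi. In MHCIIlo, where Atoh1 was well above background on only 1 of 3 arrays, the same calculation gave 3.36-fold, which is not a lower bound. Its processed signal on MHCIIlo 3 was 2.74, against 2.23 to 2.49 in kidney. Neither transcription factor gene was well above background on any kidney array. Zg16 stood at -5.86, -5.45 and -5.29 in kidney, with 2 of 3 arrays well above background, and was at least 14683-fold higher in MHCIIhi and at least 7697-fold higher in MHCIIlo. Retnlb stood at -7.61, -5.12 and -8.43, with 1 of 3 arrays well above background, kidney 2, and was at least 383-fold and at least 125-fold higher.

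Agr2, Fcgbp, Spink4 and Clca3 were well above background on all 3 kidney arrays, so their folds are measured. Fcgbp stood at -0.30, -0.35 and -0.66 in kidney and was 289-fold higher in MHCIIhi and 125-fold higher in MHCIIlo (limma adjusted p = 4.50e-07 and 9.38e-07). Spink4 stood at -1.84, -2.18 and -1.85 in kidney, 805-fold below MHCIIhi and 237-fold below MHCIIlo. These kidney values were close to each other across replicates, with SDs of 0.20 and 0.19. Agr2 stood at -4.89, -4.36 and -4.50, which was 3852-fold below MHCIIhi and 739-fold below MHCIIlo. Clca3 stood at -4.69, -3.97 and -4.48, which was 6941-fold and 3510-fold below. For all 10 genes the order of the group means was MHCIIhi, MHCIIlo, kidney, and the neighbours MHCIIhi and MHCIIlo were not separated by the test for Zg16, Clca3 and Retnlb.

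Genes of granules and of the cell apex that go with goblet cells, a list of 28, had 15 called higher in MHCIIhi and 3 lower, with a median difference of 1.46; with slide as a block 2 were called higher. Sytl4, a granule tethering protein, had a fitted difference of 3.39 ± 0.55 (limma adjusted p = 0.00232). It was well above background on 1 of 3 MHCIIlo arrays, and against their floors it was at least 4.06-fold higher. The chemokine genes Ccl9 and Ccl6 were higher by 2.54 ± 0.51 and 2.19 ± 0.63, and the transporter gene Slc12a8 by 2.47 ± 0.44. Scin, which severs actin filaments, the vesicle GTPase gene Rab26 and the secretion factor gene Stxbp2 were lower, by -1.27, -1.48 and -1.11.

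Factors that set or mature secretory cells, 24 genes with the Notch pathway among them, had 15 called higher and 1 lower, with a median difference of 1.41; with slide as a block 7 were called higher. Notch1 and Notch2, receptors that restrain the secretory fate, were higher, with fitted differences of 3.09 ± 0.32 and 2.67 ± 0.36 (limma adjusted p = 0.000350 and 0.000946). Notch1 was well above background on 1 of 3 MHCIIlo arrays, and against their floors it was at least 6.91-fold higher. Foxa2, a forkhead factor of goblet cells measured on 2 of 3 MHCIIlo arrays, was at least 7.23-fold higher. Creb3l4, a membrane-bound factor of secretory cells, was higher by 2.62 ± 0.44. Klf4, known for goblet cell differentiation in colon and for arrest of the cell cycle, was lower, by -1.39 ± 0.33 (adjusted p = 0.0102). The list thus held genes that promote and genes that oppose the goblet fate among those that were higher.

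Of 21 genes that build the sugar chains of mucins, 4 were called higher in MHCIIhi and 1 lower, with a median difference of 0.11; with slide as a block 1 was called higher. Galnt12, which starts O-linked chains, was higher by 2.19 ± 0.32, Nans, the sialic acid synthase, by 1.29 ± 0.30 and the sialic acid carrier gene Slc35a1 by 1.28 ± 0.29. Galnt5, of the same family as Galnt12, was lower, by -1.85 ± 0.44 (limma adjusted p = 0.01003). Of 33 genes for folding in the endoplasmic reticulum and its stress response, 7 were called higher and 0 lower, with a median difference of 0.11; with slide as a block 2 were called higher. Ern2, the stress sensor found in mucus-making epithelia, led them at 2.09 ± 0.34, followed by Fkbp11 at 1.76 ± 0.26, Kdelr3 at 1.72 ± 0.43 and Txndc5 at 1.71 ± 0.46. The shares called higher in these lists can be set beside the 14.9% of all genes.

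In kidney, 14 of the 21 glycosylation genes were called lower than in MHCIIhi and 12 lower than in MHCIIlo, with medians of -2.23 and -1.41. Galnt6 and the blood group enzyme gene B4galnt2 were among them, lower than MHCIIhi by -8.16 and -6.74. Of the granule list, 17 and 18 of 28 were called lower, and 2 and 6 higher. Ccl6 was lower than MHCIIhi by -8.39, and Bcas1, measured on 1 of 3 kidney arrays, was at least 96.2-fold lower. Of the folding list, 10 and 11 of 33 were called lower and 1 and 5 higher, the lower share being near that of all genes (22.8% and 27.8%). Of the factors, 13 and 12 of 24 were called lower and 4 and 7 higher, where 25.6% and 29.8% of all genes were called higher in kidney. Hey1, a Notch target measured on 1 of 3 MHCIIhi arrays, was at least 8.70-fold higher in kidney, and Jag1, a Notch ligand, was higher than in MHCIIlo by 4.94.

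Of 19 relatives of the 10 genes by name, 4 were called higher in MHCIIhi (Clca3b, Agr3, Atoh8 and Clca3a2) and 4 lower (Muc3, Muc20, Clca4b and Muc6), shares near the 14.9% and 16.1% of all genes. Atoh8 was well above background on 0 of 3 MHCIIlo arrays and was at least 1.18-fold higher. Clca3b stood at 1.48, 1.98 and 0.50 in MHCIIhi and at -0.92, -3.78 and -3.03 in MHCIIlo, a fitted difference of 3.90 ± 0.71 (limma adjusted p = 0.00352) with 2 of 3 MHCIIlo arrays measured, or at least 14.9-fold against their floors. Clca3a1, Clca3a2 and Clca3b are close copies, so their probes may share signal. Agr3, the neighbour of Agr2 in sequence, was at least 4.48-fold higher on its brighter probe, which was well above background on 1 of 3 MHCIIlo arrays, while the values of its other probe overlapped between the sorts. Muc3, a membrane mucin of absorptive cells, was called lower, at 7.45, 7.05 and 8.38 in MHCIIhi against 8.57, 8.94 and 8.69 in MHCIIlo (adjusted p = 0.0329).

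Markers of some other cell types also separated the sorts, where 14.9% of all genes tested were called higher in MHCIIhi and 16.1% lower. All 18 genes of dividing cells were called higher in MHCIIhi, with a summed level of 7.05 to 8.05 against 4.03 to 4.99, and so were 13 of 16 crypt base stem cell genes. Of 24 absorptive enterocyte markers, 0 were called higher and 21 lower in MHCIIhi, with a summed level of 10.44 to 11.58 against 12.16 to 12.68. Tuft cell markers had 0 of 15 called in either direction by limma at a median of -0.03, and enteroendocrine markers 3 of 20 higher and 2 lower. Of 24 leukocyte, plasma cell and fibroblast markers, 1 was called higher and 16 lower, with 1 of the 16, Cdh5, not well above background on any intestinal array (it is named after its value was seen). Calls in the lists of this paragraph were not counted with slide as a block. The part of these cell types in the goblet gene differences was not tested.

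**Figure D4:**
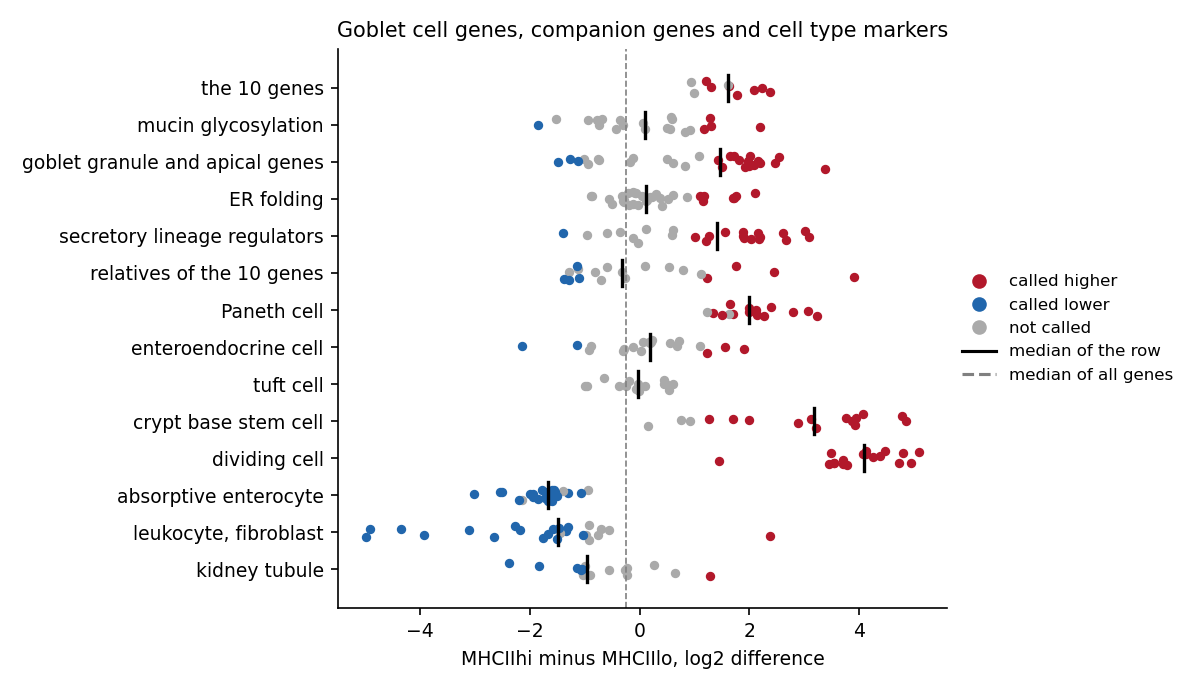
Difference between MHCIIhi and MHCIIlo (x axis, log2) of each gene tested in each list, coloured by call, with the list median in black and the median of all genes dashed. The 10 goblet genes sit between 0.93 and 2.38, with a median near those of the granule and regulator lists, below those of the stem and dividing cell lists, and opposite in sign to that of the enterocyte list.

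Promoters are shown for pairs of members that were measured on every intestinal array, were lowest on the same MHCIIlo array and have an entry. These were Muc2 and Fcgbp, lowest on MHCIIlo 3, and Agr2 and Spdef, lowest on MHCIIlo 2. Agr2 was nearly as low on MHCIIlo 3 (4.45) as on MHCIIlo 2 (4.41). All of them were highest on MHCIIlo 1. RefSeq promoter sequences on GRCm38.p6 were found for 5 of the 10 genes, the fifth being Atoh1. Atoh1 was also lowest on MHCIIlo 3, but was well above background on 1 of 3 MHCIIlo arrays, and its sequence is not shown. The 250 bases before each start were searched on both strands for the E-box core CAGCTG, the forkhead motif TGTTTAC and the unfolded protein response motif TGACGTG with its shorter core TGACGT, which overlaps it. Matches are in capitals. Positions are chr7:141690090-141690339 for Muc2, chr7:28070986-28071235 for Fcgbp and chr12:35992675-35992924 for Agr2, all on the plus strand, and chr17:27728952-27729201 for Spdef on the minus strand.
Muc2 promoter: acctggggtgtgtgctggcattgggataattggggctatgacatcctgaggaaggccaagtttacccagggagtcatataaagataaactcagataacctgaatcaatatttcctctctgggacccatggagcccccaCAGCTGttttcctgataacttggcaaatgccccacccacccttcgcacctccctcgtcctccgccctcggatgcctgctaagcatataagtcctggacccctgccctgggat
Fcgbp promoter: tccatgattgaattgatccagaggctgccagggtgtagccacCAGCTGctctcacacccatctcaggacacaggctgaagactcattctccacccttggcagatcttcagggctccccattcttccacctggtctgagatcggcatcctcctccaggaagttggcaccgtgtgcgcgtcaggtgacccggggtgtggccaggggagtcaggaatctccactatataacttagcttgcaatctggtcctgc
Agr2 promoter: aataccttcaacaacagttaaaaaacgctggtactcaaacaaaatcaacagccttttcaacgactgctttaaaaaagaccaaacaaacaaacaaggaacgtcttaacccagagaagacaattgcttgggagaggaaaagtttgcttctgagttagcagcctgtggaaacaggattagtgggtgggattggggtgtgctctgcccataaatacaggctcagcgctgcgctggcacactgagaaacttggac
Spdef promoter: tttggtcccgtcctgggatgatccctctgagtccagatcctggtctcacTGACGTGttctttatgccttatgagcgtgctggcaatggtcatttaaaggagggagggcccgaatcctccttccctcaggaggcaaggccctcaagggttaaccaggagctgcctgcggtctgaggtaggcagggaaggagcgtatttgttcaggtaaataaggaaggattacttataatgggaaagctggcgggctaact
The E-box core was found once each in the Muc2 and Fcgbp windows, and it occurs in 13.1% of 32536 promoter windows of the same length. The unfolded protein response motif was found once in the Spdef window, and it occurs in 1.66% of windows. The windows of Agr2 and Atoh1 held none of the 4 motifs, and the forkhead motif, present in 3.17% of windows, was in none of the 5. A match describes letters in the window and not a bound site.

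Genes with the pattern most like that of the goblet genes were taken from 9828 genes with RefSeq names that were well above background on all 6 intestinal arrays. Likeness was Pearson's r over these 6 arrays to the mean centred profile of the 9 goblet genes measured on all of them. It is a description over arrays that fall into the 2 sorts, and 441 candidates (4.49%) reached an r of at least 0.9. Scnn1a, a subunit of the epithelial sodium channel, came first with an r of 0.996. It stood at 0.41, 0.13 and 0.43 in MHCIIhi and at -0.21, -0.52 and -0.66 in MHCIIlo. The next were the kallikrein genes Klk1b4, Klk1b8, Klk1b3, Klk1 and Klk1b21 (r of 0.994 to 0.987), near-identical copies whose probes cannot be told apart with certainty, and Odf2l (0.992) and Hscb (0.984), a chaperone of iron-sulfur cluster assembly. The likeness was computed within the intestine alone. Klk1 stood at 8.80 to 9.07 and Scnn1a at 5.12 to 5.26 in kidney, above their intestinal levels, where the goblet genes were at their lowest.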

How the data were processed

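RNA of 9 pooled samples was labelled with Cy3 and hybridised to single-colour Agilent arrays, 1 per sample. The processed signal deposited by the authors is an intensity that Agilent Feature Extraction (version 10.5.1.1) made with background subtraction, as the file headers record. The authors' values, also intensity, equal this signal over the median of the array, to a relative deviation of at most 2.37e-05. Control spots and flagged spots were left out, and spots of a probe averaged, leaving 41174 probes. Signals were log2 transformed after division by the array's 75th percentile over probes. Each gene was read from its brightest probe on average, and entered the fit if some group had that probe well above background on all its arrays. limma 3.58.1 (lmFit, eBayes; R 4.3.3) was fitted to all arrays with group as factor. The code was tested on simulated data. Figures used matplotlib in Python.

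The genes, the lists and the tests were chosen with earlier results of these data known. Companion genes named were, by rule, up to 4 called genes per list and comparison with the largest differences, genes opposite to their list, relatives by name, and the 8 most alike in pattern; the text gives a selection. Alternatives were other normalizations, background correction, the authors' values, dim-probe filters, probe averaging, variance priors, blocks, thresholds and leaving out each array. Replicates were separate pools, per the labels. No table of protein sequences or genome was used here.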

Additional observations from a re-analysis of the deposited data

How the results depend on the processing

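Of 214 tests of single goblet genes between MHCIIhi and MHCIIlo under 22 alternatives, 191 kept direction and call, 16 lost the call, 6 gained it and 1 reversed. All 204 and 203 tests against kidney kept both. The 7 genes called higher in MHCIIhi became 3 (Agr2, Fcgbp and Spink4) when a gene had to be well above background on all 9 arrays, which tests fewer genes, 2 with slide as a fixed block, and 4 (Agr2, Spdef, Spink4 and Atoh1) at an adjusted p below 0.01. Leaving out single arrays gave 4 to 8. In kidney, the 10 genes called lower became 4 in each comparison with the same filter on all 9 arrays (Agr2, Fcgbp, Spink4 and Clca3). Of the 10 genes, that filter left only these 4 to be tested in any comparison, the one between the sorts included. With normexp and its offset of 50, Atoh1 reversed to -0.0648 and Spdef relative to Muc2 to -0.0908, and 9 genes, all but Atoh1, were called. Where no cause is given, the cause was not tested.

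All genes called between the sorts numbered 6197; the count was 2961 with normexp, 1683 with slide as a fixed block, 4024 with the filter on all 9 arrays, 4117 at an adjusted p below 0.01 and 10014 without a size threshold. In kidney, 9681 genes were called against MHCIIhi and 11516 against MHCIIlo; the filter on all 9 arrays gave 5445 and 7020, and no filter 17741 against MHCIIlo. With normexp the granule, folding and factor lists had 9, 4 and 7 genes called higher. The 14 Paneth markers called higher became 1 to 9 under slide as a block, fixed or random, the filter on all 9 arrays, the adjusted p below 0.01, and without MHCIIhi 1, MHCIIhi 2 or MHCIIlo 2. With both MHCIIhi 3 and MHCIIlo 1 left out, an alternative chosen after seeing the data, 7 goblet genes and 9305 of all genes were called. Same-numbered arrays of the intestinal sorts deviated from their group means with r of 0.19, -0.35 and 0.28, and unlike-numbered ones with r of -0.499 to 0.443. Deviations within 3 arrays are tied to each other, so these values cannot show whether the numbers pair samples. With the replicate number as a block, 7 goblet genes were again called higher and 10 lower in kidney in each comparison. Signal over background limited Atoh1, measured on 1 of 3 MHCIIlo arrays.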
